A study of Mus musculus with 5 samples.

Results

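The 10 genes Adgre1, Cd68, Cd163, Mrc1, Lyve1, Retnla, Folr2, Cd14, Marco and Mertk, which are in common use for recognizing macrophages, were followed in uterine RNA by matching their symbols to the 28666 genes of the deposited count table. All 10 were listed, and all 10 were among the 17013 genes left for testing by a filter on low counts. The RNA came from whole uteri of ICR mice, an outbred stock, aged 6 to 8 weeks, which were caged at estrus with C57BL/6 males whose sperm ducts had been cut, so that seminal plasma (SP) reached the females without sperm. The males were 12 to 18 months old in the aged-SP group (n = 2, replicates 1 and 4) and 12 to 14 weeks old in the young-SP group (n = 3, replicates 1, 2 and 4). The labels place tissue removal 3.5 days after caging, while the methods of the study give 3.0 dpc (days post coitum), before embryos were transferred. A further young-SP sample that the study set aside as an outlier, and unmated females, were not analysed here. The sources used here do not say whether several females shared a male or how many males were used, so p-values measure the spread between these 5 samples.

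Macrophages are phagocytes of the myeloid lineage that live in the endometrium and the muscle wall of the uterus, take up dead cells and debris, and vary in number with ovarian hormones and mating. Their usual markers include the surface receptor F4/80, the product of Adgre1, and the lysosomal glycoprotein CD68. Resident macrophages of many tissues also carry scavenger and uptake receptors, such as CD163, the mannose receptor CD206 from Mrc1, LYVE1, the folate receptor from Folr2 and MERTK. CD14 hands bacterial lipopolysaccharide to its signaling receptor, and Retnla encodes a secreted protein induced by the type 2 cytokines interleukin-4 and interleukin-13. Some of the 10 genes are active in other cells too, Lyve1 and Mrc1 in lymphatic endothelium, Retnla in fat, and Cd14 in neutrophils and epithelium. In RNA of a whole uterus, a change in the number of cells of a type and a change in the RNA per cell cannot be told apart.

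The libraries held between 15071914 and 16728601 counted reads, and the 10 most abundant genes took 6.38% to 7.71% of them. On the first principal component of the 500 most variable genes, which held 66.2% of their variance, young-SP replicate 1 scored -9.43, on the side of aged-SP replicates 1 (-43.7) and 4 (-25.5) and away from young-SP replicates 2 (41.9) and 4 (36.6). The members were therefore also compared without young-SP replicate 1, all but Marco, which then no longer passed the filter. Broad macrophage transcripts were present in all 5 libraries, with Csf1r, the receptor for the macrophage growth factor CSF1, at 77.3 to 160.2 CPM (the reads of a gene relative to all reads of the library, scaled by TMM) and the lysozyme gene Lyz2 at 545.1 to 1290 CPM.

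Across the 10 members, Retnla and Lyve1 separated the groups most clearly, Mertk by a small margin, and the other 7 overlapped between the groups. With edgeR's quasi-likelihood test, adjusted after Benjamini-Hochberg for all tested genes, 0 of the 10 members had an adjusted p below 0.05, as against 0.153% of all tested genes, and so 0 were called, that is, also changed more than 2-fold (0.147% of all tested genes). At an unadjusted p below 0.05, 2 members, Lyve1 and Retnla, were higher in the aged-SP group, and this share was close to the 19.0% of all tested genes at that level. DESeq2's Wald test gave the same 2 members an adjusted p below 0.05, where it gave that to 7.58% of all genes, and called only Retnla, at a background of 3.60%. In 3 of 10 members (Retnla, Lyve1 and Mertk) both aged-SP libraries lay above all 3 young-SP libraries, which held for 19.5% of all tested genes, and in 0 of 10 they lay below, against 19.3%. The estimated fold change was above 1 for 7 members, against 50.9% of all tested genes, and below 1 for 3, with a median log2 fold change of 0.35 where that of all tested genes was 0.0072. Left without young-SP replicate 1, edgeR tested 9 members, and 3 had an unadjusted p below 0.05, against 22.7% of all genes in that fit, while 1, Lyve1, had an adjusted p below 0.05, against 4.81%. Left without aged-SP replicate 1, 4 of 10 members were higher in the aged-SP group with an unadjusted p below 0.05, against 6.47% of all genes in that fit, and 0 had an adjusted one, against 0.00568%.

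**Figure D1:**
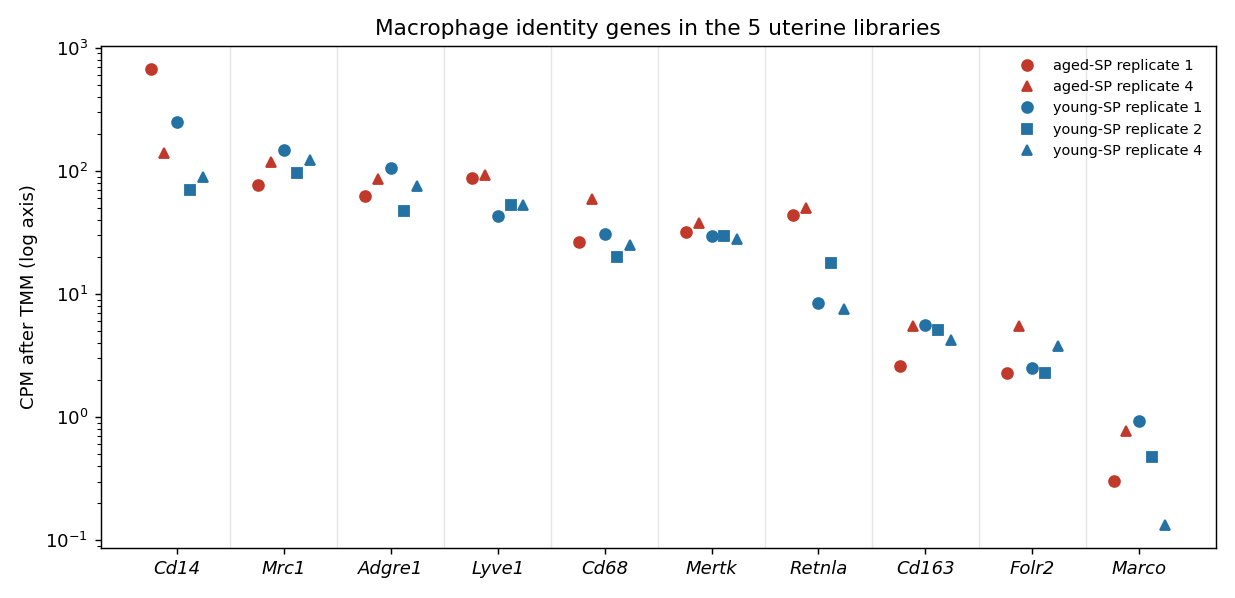
CPM after TMM of each member (log axis) in the 2 aged-SP libraries (red) and the 3 young-SP libraries (blue), 1 point per library, with the marker shape giving the replicate number. The red points lie above all blue points for Lyve1, Retnla and Mertk, and the 675.6 CPM of Cd14 in aged-SP replicate 1 is the highest value shown.

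**Figure D2:**
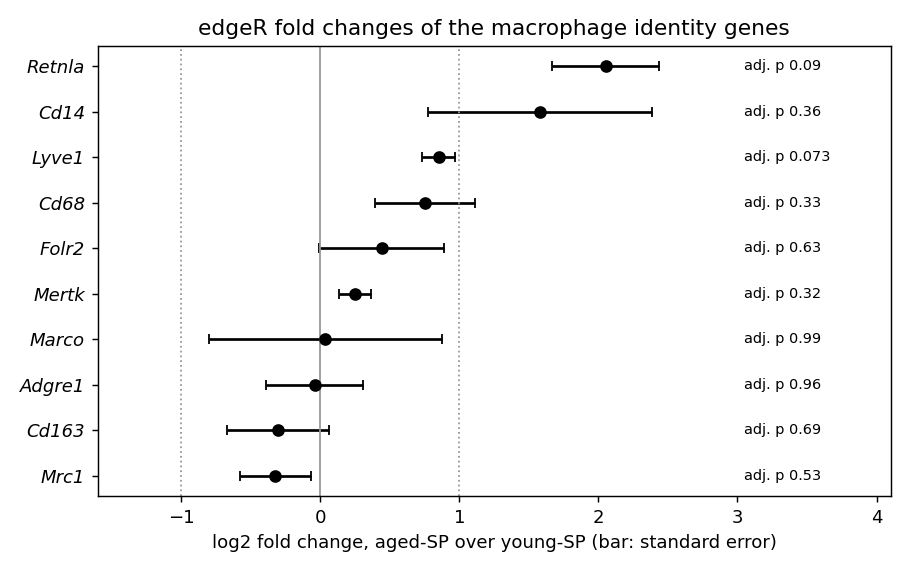
Log2 fold change of each member, aged-SP over young-SP, with its standard error from edgeR (n = 2 and 3) and the Benjamini-Hochberg adjusted p over all tested genes from edgeR's quasi-likelihood test. Dotted lines mark a 2-fold change, and Retnla (2.05) and Cd14 (1.58) lie beyond it, with standard errors of 0.38 and 0.81.

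Compared per length of gene, in the FPKM that the authors deposited, Cd14 was the most abundant member with a mean over the 5 libraries of 154.7 FPKM and Marco the least abundant with 0.271 FPKM. Between them came Retnla (mean 42.5 FPKM, range 12.7 to 82.7), Cd68 (25.5, 16.4 to 46.6), Adgre1 (23.2, 14.9 to 32.5), Lyve1 (22.5, 14.8 to 31.5) and Mrc1 (17.6, 11.97 to 22.9). Among these 6 genes, each overlapped in range with its neighbor in the order, Cd14 (45.1 to 425.0) with Retnla included, so the order is not fixed beyond the spread over libraries. Mertk (mean 7.21 FPKM, range 6.43 to 8.65) lay below every library of Mrc1, Folr2 (2.12, 1.47 to 3.55) below every library of Mertk, and Cd163 (0.845, 0.471 to 1.01) below every library of Folr2. Marco (0.0689 to 0.484 FPKM) overlapped with Cd163 at its upper end.

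Added together, the members came to 1011 and 593.3 CPM in aged-SP replicates 1 and 4, and to 625.4, 340.6 and 409.4 CPM in young-SP replicates 1, 2 and 4. The groups overlapped, since young-SP replicate 1 exceeded aged-SP replicate 4, and the ratio of the group means was 0.81 on the log2 scale. Cd14 alone made up 66.8% of the sum in aged-SP replicate 1 and 20.4% to 40.1% in the other 4 libraries. When Cd14 was left out of the sum, the log2 ratio was 0.29, and the range of the aged-SP libraries (335.3 and 453.3 CPM) overlapped with that of the young-SP libraries (374.5, 271.2 and 320.4 CPM).

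Of the 2 general macrophage markers, Adgre1 (chromosome 17, plus strand, 57358686 to 57483529) did not separate the groups. Its level was 62.9 and 85.6 CPM in aged-SP replicates 1 and 4, and 106.3, 47.4 and 75.4 CPM in young-SP replicates 1, 2 and 4. The group means were 74.2 ± 16.0 CPM (SD, n = 2) and 76.3 ± 29.5 CPM (SD, n = 3), and the highest and the lowest library were both in the young-SP group. Its log2 fold change was -0.04 ± 0.35 (SE), with an adjusted p of 0.964 by edgeR's quasi-likelihood test, and it was 0.26 without young-SP replicate 1 and 0.16 without aged-SP replicate 1.

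Cd68 (chromosome 11, minus strand, 69664213 to 69666153) was high in 1 library. It was 26.4 and 58.8 CPM in the aged-SP replicates 1 and 4, and 30.5, 20.2 and 25.1 CPM in young-SP replicates 1, 2 and 4. Aged-SP replicate 4 lay above all other libraries, while replicate 1 of that group fell within the young-SP range. A log2 fold change of 0.75 ± 0.36 (SE) had an adjusted p of 0.328 by edgeR's quasi-likelihood test, and without aged-SP replicate 4 it was 0.07.

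Beside these markers, 12 other genes of the macrophage and myeloid lineage were examined (Csf1r, Spi1, Aif1, Fcgr1, Fcgr3, Itgam, Cx3cr1, Lyz2, Ctss, Tyrobp, Cybb and Laptm5). Of these, 0 separated the groups, where in 19.5% of all tested genes the aged-SP libraries lay above and in 19.3% below. An unadjusted p below 0.05 by edgeR's quasi-likelihood test was reached by 0 of the 12, against 19.0% of all tested genes. Their median log2 fold change was 0.20, or 0.56 without young-SP replicate 1 and 0.47 without aged-SP replicate 1, and 11 of the 12 had their lowest value in young-SP replicate 2. The summed level of the 12 was 1273 and 2054 CPM in the aged-SP libraries against 1824, 937.5 and 1230 CPM in the young-SP libraries, so that the spread within each group was as wide as the gap between the groups. Lyz2 itself, the most abundant of them, was 722.7 and 1290 CPM against 1060, 545.1 and 755.3 CPM. Without young-SP replicate 1, 4 of the 12 were higher in the aged-SP group with an unadjusted p below 0.05 and 2 of them reached an adjusted p below 0.05 by edgeR's quasi-likelihood test, where 22.7% and 4.81% of all genes in that fit did so in either direction.

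The endocytic receptors of the list pointed in no common direction. Mrc1 (chromosome 2, plus strand, 14229392 to 14332057), whose product binds mannose-bearing glycoproteins, was 77.1 and 117.9 CPM in aged-SP replicates 1 and 4, and 147.2, 95.6 and 122.9 CPM in young-SP replicates 1, 2 and 4. The lowest library was aged-SP replicate 1 and the highest young-SP replicate 1, and aged-SP replicate 4 fell inside the young-SP range. Between the groups, the log2 fold change was -0.32 ± 0.25 (SE), with an adjusted p of 0.530 by edgeR's quasi-likelihood test.

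Cd163 (chromosome 6, plus strand, 124304656 to 124330527), the receptor that clears hemoglobin bound to haptoglobin, was rare, at 43 and 86 reads in aged-SP replicates 1 and 4 and 89, 87 and 64 reads in young-SP replicates 1, 2 and 4. In CPM these were 2.60 and 5.50 against 5.57, 5.14 and 4.27, so that only aged-SP replicate 1 stood below the others. A log2 fold change of -0.30 ± 0.37 (SE) had an adjusted p of 0.690 by edgeR's quasi-likelihood test, and without aged-SP replicate 1 the sign turned, at 0.14.

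Marco (chromosome 1, minus strand, 120474538 to 120505024), a scavenger receptor best known from lung and spleen macrophages, was close to the limit of detection. It had 5 and 12 reads in the aged-SP libraries and 15, 8 and 2 in young-SP replicates 1, 2 and 4. At this depth no difference was detectable, and the log2 fold change was 0.04 ± 0.84 (SE, adjusted p = 0.986 by edgeR's quasi-likelihood test).

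Folr2 (chromosome 7, minus strand, 101839988 to 101857194), a folate receptor of resident macrophages, had 38 and 86 reads in aged-SP replicates 1 and 4, and 40, 39 and 57 reads in young-SP replicates 1, 2 and 4. As with Cd68, aged-SP replicate 4 was the highest library and aged-SP replicate 1 was no higher than the young-SP libraries. Its log2 fold change was 0.44 ± 0.45 (SE), with an adjusted p of 0.632 by edgeR's quasi-likelihood test. Of the 50-base stretches in its transcripts, 52.6% also occur in transcripts of Gm10602, which overlaps Folr2 on the opposite strand, and since the library kit does not mark strand the reads of the pair cannot be told apart. The other 9 members shared at most 0.109% of such stretches with other genes.

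Among 15 structural relatives of the members, 14 were tested and 5 had an unadjusted p below 0.05, 3 with higher and 2 with lower levels in the aged-SP libraries, where 19.0% of all tested genes had such a p. Their median log2 fold change was -0.12, and 0.08 without aged-SP replicate 1. Cd163l1, a scavenger receptor of the CD163 family known from gamma delta T cells, was 0.846 and 0.959 CPM in the aged-SP libraries and 7.32, 13.4 and 6.14 CPM in the young-SP libraries. Every young-SP library was thus several times higher than both aged-SP libraries, opposite in direction to 7 of the 10 members. Its log2 fold change was -3.30 ± 0.46 (SE), with an adjusted p of 0.0734 by edgeR's quasi-likelihood test and 2.31e-08 by DESeq2's Wald test. Folr1, the epithelial folate receptor, was 11.3 CPM in aged-SP replicate 1 and 0.438 to 1.28 CPM elsewhere. The other 3 were Pla2r1 (log2 fold change 0.40), the lysosomal membrane gene Lamp1 (0.32) and the scavenger receptor Colec12 (-0.61), and Mrc2, the closest relative of Mrc1, gave -0.09. Lamp2, the most abundant relative, ranged from 695.1 to 889.6 CPM.

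Lyve1 (chromosome 7, minus strand, 110850607 to 110863239) encodes a hyaluronan receptor that is found on lymphatic endothelium and on a subset of resident macrophages. It was 87.8 and 92.0 CPM in aged-SP replicates 1 and 4, and 43.4, 52.9 and 53.1 CPM in young-SP replicates 1, 2 and 4. The aged-SP libraries lay close together and above all young-SP libraries, at means of 89.9 ± 3.01 CPM (SD, n = 2) and 49.8 ± 5.53 CPM (SD, n = 3). The log2 fold change was 0.85 ± 0.12 (SE), or 1.80-fold, with an adjusted p of 0.0734 by edgeR's quasi-likelihood test and 1.39e-05 by DESeq2's Wald test. Over the omissions of 1 library the edgeR estimate stayed between 0.75 and 0.90. Its adjusted p by edgeR's quasi-likelihood test was 0.0256 without young-SP replicate 1 and between 0.172 and 0.254 in the other 4 omissions, while DESeq2's Wald test gave adjusted p values up to 0.0218.

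The lymphatic endothelial genes differed between the groups in the same direction as Lyve1. All 6 that were examined (Prox1, Flt4, Pdpn, Ccl21a, Mmrn1 and Reln) were tested, and in all 6 both aged-SP libraries lay above all 3 young-SP libraries, at a background of 19.5%. All 6 also had an unadjusted p below 0.05 with the higher level in the aged-SP group, where 9.62% of all tested genes did, and 0 of the 6 reached an adjusted p below 0.05 by edgeR's quasi-likelihood test, while 4 did in DESeq2's Wald test, at a background of 3.69% in that direction. Their median log2 fold change was 0.98, or 0.79 without young-SP replicate 1 and 0.998 without aged-SP replicate 1. In 4 of the 6, young-SP replicate 1 was the lowest library. Without it, all 6 had an unadjusted p below 0.05 by edgeR's quasi-likelihood test and 0 an adjusted one, against 22.7% and 4.81% of all genes in that fit.

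Prox1, the transcription factor that sets lymphatic identity, was 35.3 and 33.2 CPM in the aged-SP libraries against 9.88, 22.9 and 17.0 CPM in young-SP replicates 1, 2 and 4. Its log2 fold change was 1.05 ± 0.34 (SE), with an adjusted p of 0.199 by edgeR's quasi-likelihood test. The largest of the 6 fold changes was that of Pdpn, the membrane glycoprotein podoplanin (1.39 ± 0.31), followed by Reln, a secreted glycoprotein (1.15 ± 0.21, adjusted p = 0.0867 by edgeR's quasi-likelihood test and 0.000141 by DESeq2's Wald test). Ccl21a, a chemokine that draws dendritic cells and T cells into lymphatics, gave 0.92, Mmrn1, the most abundant of the 6, gave 0.72, and Flt4, the receptor for VEGF-C, gave 0.64. Of the 50-base stretches of Ccl21a, 71.6% occur in near-identical copies, so its value may hold reads of those genes.

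Divided by the summed level of the 6 lymphatic genes, Lyve1 was 0.305 and 0.286 in the aged-SP libraries and 0.337, 0.256 and 0.308 in young-SP replicates 1, 2 and 4. The separation of the groups was gone on this scale, and the ratio of the group means was 0.983. Per Adgre1 the groups also overlapped (1.40 and 1.08 against 0.408, 1.12 and 0.705), but the ratio of the group means was 1.66. Per unit of Ptprc, the pan-leukocyte gene of CD45, the aged-SP libraries stayed above the others (0.903 and 1.24 against 0.349, 0.654 and 0.591). The ratio of the group means was 2.01 there. The part of lymphatic endothelium in the level of Lyve1 was not tested. Among 5 blood vessel genes, both aged-SP libraries lay above all young-SP libraries in 0 and below them in 1. With shares of 19.5% and 19.3% among all tested genes, counts out of 5 cannot set this list apart. Its median log2 fold change was -0.07, where that of the 6 lymphatic genes was 0.98. The estimated fold change was above 1 for 2 of the 5 and below 1 for 3. Pecam1, the most abundant of the 5, was 213.5 and 203.0 CPM against 137.0, 218.3 and 162.9 CPM, a log2 fold change of 0.27. Emcn had a log2 fold change of -0.32 with an unadjusted p below 0.05 by edgeR's quasi-likelihood test.

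**Figure D3:**
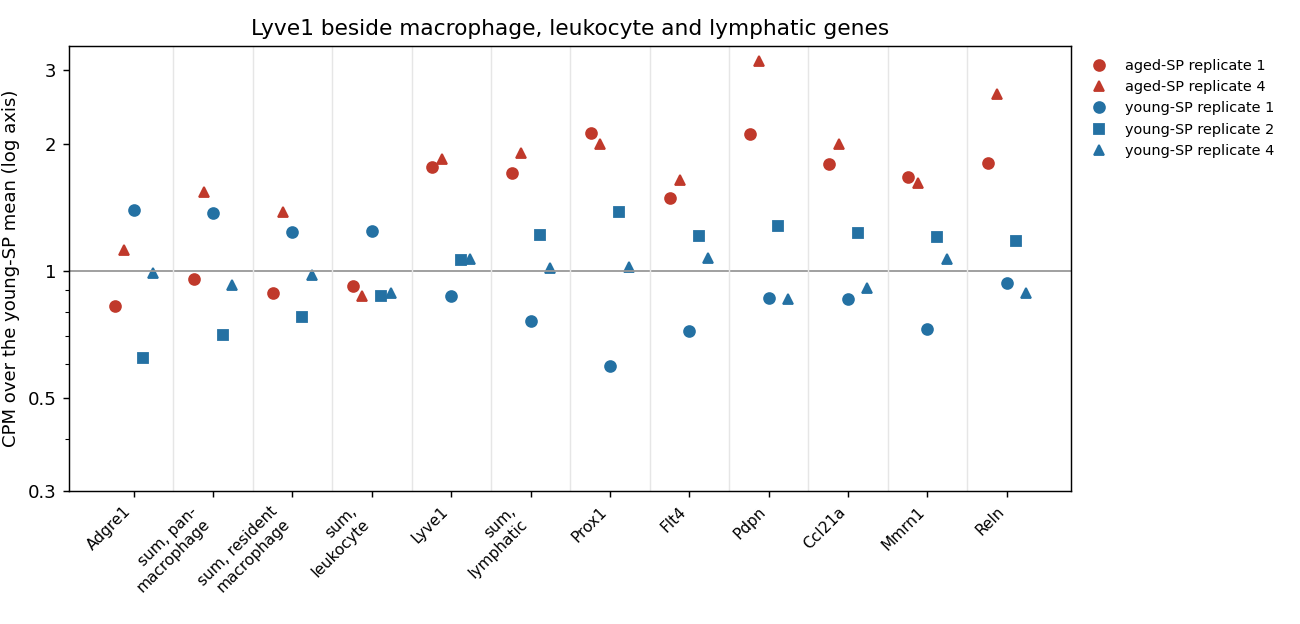
Level of Lyve1, Adgre1, 4 summed gene lists and the 6 lymphatic genes in each library, divided by the mean of the 3 young-SP libraries (log axis; the line marks that mean). For Lyve1, the lymphatic sum and each lymphatic gene, both aged-SP libraries (red) lie above all young-SP libraries (blue), whereas the groups overlap for Adgre1 and for the pan-macrophage, resident macrophage and leukocyte sums.

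Retnla (chromosome 16, plus strand, 48842552 to 48844461), which encodes the resistin-like protein RELM alpha and is a standard marker of macrophages exposed to type 2 cytokines, showed the largest difference of the 10. It was 44.2 and 49.6 CPM in aged-SP replicates 1 and 4, and 8.38, 17.8 and 7.61 CPM in young-SP replicates 1, 2 and 4. The aged-SP libraries lay more than 2-fold above the highest young-SP library, at means of 46.9 ± 3.80 CPM (SD, n = 2) and 11.3 ± 5.67 CPM (SD, n = 3). This gave a log2 fold change of 2.05 ± 0.38 (SE), or 4.15-fold, with an adjusted p of 0.0905 by edgeR's quasi-likelihood test and 1.93e-05 by DESeq2's Wald test. With each library left out in turn the edgeR estimate stayed between 1.83 and 2.55, with adjusted p values of 0.068 to 0.276 by edgeR's quasi-likelihood test. DESeq2's Wald test called the gene in each of these omissions, with adjusted p values of at most 0.0094.

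Read against other genes, the difference in Retnla was smaller for most of them. Per Adgre1 it was 0.702 and 0.579 in the aged-SP libraries against 0.0788, 0.376 and 0.101 in young-SP replicates 1, 2 and 4. The edgeR fold change of Retnla itself was 4.15. The ratio of the group means was 3.46 per Adgre1, 2.97 per summed pan-macrophage genes, 2.36 per summed lymphatic genes and 1.99 per Prox1. It was 4.39 per summed leukocyte genes and 4.52 per Ptprc. Both aged-SP libraries lay above all young-SP libraries each time. As a share of the 10 summed members the groups overlapped, at 4.37% and 8.36% against 1.34%, 5.22% and 1.86%. For fat, another known source of Retnla RNA, Adipoq had 0 reads in 4 of the 5 libraries and 0.801 CPM in young-SP replicate 4, and Plin1 and Cidec were likewise at 0 in both aged-SP libraries.

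The genes around the interleukin-4 and interleukin-13 pathway were a mixed group, of which 12 of 13 were listed and 11 tested. The cytokine gene Il4 itself was 2.42 and 3.52 CPM in the aged-SP libraries and 2.25, 2.84 and 3.67 CPM in the young-SP libraries, and Il13 did not pass the filter. Of the 11, 4 were higher in the aged-SP group with an unadjusted p below 0.05 (9.62% of all tested genes) and 0 lower. An adjusted p below 0.05 was reached by 0 in edgeR's quasi-likelihood test, against 0.153% of all tested genes. In DESeq2's Wald test 1 reached it, the receptor gene Il4ra, at a background of 3.69% in that direction and 7.58% in either. A count of 1 in 11 cannot set this list apart from that background.

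Il4ra, the receptor chain shared by both cytokines, was 120.8 and 115.4 CPM in the aged-SP libraries against 92.9, 70.9 and 68.4 CPM in young-SP replicates 1, 2 and 4. Its log2 fold change was 0.61 ± 0.15 (SE), with an adjusted p of 0.141 by edgeR's quasi-likelihood test and 0.0239 by DESeq2's Wald test. Stat6, the transcription factor both cytokines activate, differed less, at 106.6 and 109.5 CPM against 93.1, 84.7 and 90.3 CPM, a log2 fold change of 0.27 ± 0.09. Chil4, a chitinase-like gene of type 2 responses that shares 11% of its 50-base stretches with relatives, was 11.8 and 2.94 CPM against 0.563, 0 and 0.0668 CPM. Its log2 fold change of 5.09 ± 1.12 (SE) was the largest of this list and rests on young-SP levels near 0. Klf4, a transcription factor induced by interleukin-4 but also active in epithelium, had a log2 fold change of 0.73. It was 61.6 and 33.9 CPM against 23.5, 33.5 and 29.5 CPM, so aged-SP replicate 4 barely exceeded young-SP replicate 2. The response genes most often read beside Retnla did not separate the groups. Arg1 (arginase 1) was 1.93 and 4.09 CPM against 6.00, 1.60 and 1.27 CPM and Chil3 was 0.967 and 0.704 CPM against 2.06, 0.828 and 0.668 CPM.

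**Figure D4:**
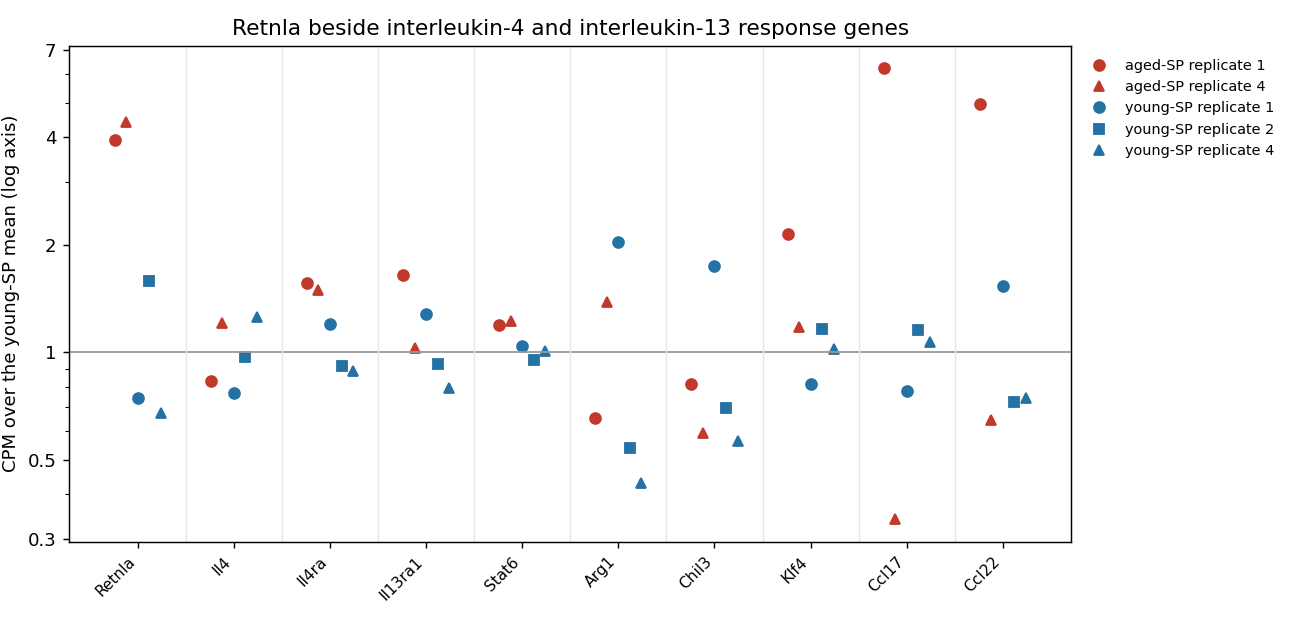
Retnla and 9 genes of the interleukin-4 and interleukin-13 pathway in each library, divided by the mean of the 3 young-SP libraries (log axis; the line marks that mean). Not shown are the tested genes Chil4, where both aged-SP libraries also exceed all young-SP libraries, and Retnlg, where the groups overlap. Both aged-SP libraries (red) exceed all young-SP libraries (blue) for Retnla, Il4ra, Stat6 and Klf4, and the groups overlap for Il4, Il13ra1, Arg1, Chil3, Ccl17 and Ccl22.

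The upstream sequence of Retnla is shown because this gene had the largest fold change of the list, with those of Cd68, a marker of all macrophages, and Mrc1, another gene that interleukin-4 is known to induce, for comparison. RefSeq upstream windows (build GRCm38.p6) were matched for 7 of the 10 members, all but Adgre1, Lyve1 and Cd14, and searched over the 250 bases before the transcription start for GAGGAA, the core bound by PU.1, for the C/EBP pattern TTGCNNAA, for the STAT6 pattern TTCNNNNGAA and for TGCTGAC, a MAF half-site, on both strands. Matches are in capitals, written 5′ to 3′ on the strand of the gene, and bases that GENCODE M21 places within an exon are left out at the 3′ end.
Retnla, chr16:48842359-48842550, plus strand: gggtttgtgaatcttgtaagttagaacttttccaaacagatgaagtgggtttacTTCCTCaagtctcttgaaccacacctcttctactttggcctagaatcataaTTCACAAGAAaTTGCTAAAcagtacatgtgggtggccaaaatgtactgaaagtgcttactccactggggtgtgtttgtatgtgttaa
Cd68, chr11:69666171-69666420, minus strand: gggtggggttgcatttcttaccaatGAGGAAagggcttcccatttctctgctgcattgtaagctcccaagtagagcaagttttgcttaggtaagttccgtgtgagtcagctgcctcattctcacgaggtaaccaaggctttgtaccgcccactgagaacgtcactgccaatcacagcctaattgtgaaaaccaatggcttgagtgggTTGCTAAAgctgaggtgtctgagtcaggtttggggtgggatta
Mrc1, chr2:14229164-14229391, plus strand: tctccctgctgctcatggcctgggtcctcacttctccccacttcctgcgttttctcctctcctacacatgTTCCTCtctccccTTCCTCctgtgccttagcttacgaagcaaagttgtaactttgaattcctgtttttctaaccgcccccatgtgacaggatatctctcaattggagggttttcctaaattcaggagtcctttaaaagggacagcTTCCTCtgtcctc

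In the Retnla sequence the STAT6 match begins 145 bases and the C/EBP match 134 bases before the RefSeq start, and a PU.1 core lies 196 bases before it. No 2 matches overlap. Of the 7 members, only Retnla matched the STAT6 pattern, which 5.85% of the 32851 RefSeq windows hold. The MAF half-site (3.81% of windows) was also matched only in Retnla, 48 bases before the RefSeq start and inside the GENCODE exon that is not shown. Cd68 shared with Retnla the C/EBP pattern (9.56% of windows), 43 bases before its start. The PU.1 core, which 23.3% of windows hold, was present in Retnla, Cd68, Marco and Mrc1, in the last of these at 3 places. A match of letters does not show that a factor binds there.

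Mertk (chromosome 2, plus strand, 128698956 to 128802894) encodes a receptor tyrosine kinase with which macrophages engulf dying cells. It was the steadiest of the 10, at 31.6 and 37.6 CPM in aged-SP replicates 1 and 4 and 29.7, 29.5 and 28.0 CPM in young-SP replicates 1, 2 and 4. Both aged-SP libraries were above all young-SP libraries, but the nearest pair differed by less than the spread within the aged-SP group. The log2 fold change was 0.25 ± 0.12 (SE), with an adjusted p of 0.323 by edgeR's quasi-likelihood test.

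Around Mertk, 11 genes of dead cell uptake were tested, with a median log2 fold change of 0.25 and 1 gene with an unadjusted p below 0.05 in each direction (19.0% of all tested genes in both directions together). Mfge8, a secreted bridge between dying cells and integrins, was 301.2 and 216.9 CPM in the aged-SP libraries and 132.4, 126.1 and 142.2 CPM in the young-SP libraries. This was a log2 fold change of 0.96 ± 0.16 (SE), with an adjusted p of 0.0767 by edgeR's quasi-likelihood test and 6.83e-05 by DESeq2's Wald test. Elmo1, which acts inside the phagocyte, was lower in the aged-SP group, at 22.4 and 23.1 CPM against 35.5, 28.7 and 32.0 CPM. The other receptors of the family were near Mertk in size of change, Axl and Tyro3 both at a log2 fold change of 0.25 with aged-SP libraries above young-SP libraries, and Lrp1, the most abundant of the 11, was at 0.07.

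Cd14 (minus strand) varied more between libraries than any other member, 9.73-fold from the lowest to the highest. It was 675.6 and 140.0 CPM in aged-SP replicates 1 and 4, and 250.9, 69.5 and 89.1 CPM in young-SP replicates 1, 2 and 4. Aged-SP replicate 4 lay below young-SP replicate 1, so the groups overlapped despite the group means of 407.8 ± 378.7 CPM (SD, n = 2) and 136.5 ± 99.6 CPM (SD, n = 3). Its log2 fold change of 1.58 ± 0.81 (SE) had an adjusted p of 0.356 by edgeR's quasi-likelihood test, and without aged-SP replicate 1 it was 0.03.

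Aged-SP replicate 1 also held the highest level of several genes with which Cd14 is read. The chemokine gene Ccl2 was 42.9 CPM there and 1.83 to 2.54 CPM in the other 4 libraries, and the growth factor gene Csf1 was 314.9 CPM there and 30.6 to 59.3 CPM elsewhere. Of the 11 tested genes of inflammatory macrophage activation, 7 had their highest value in aged-SP replicate 1, and the share of all genes that did was not determined. Their median log2 fold change was 0.83, or -0.62 without aged-SP replicate 1 and 1.73 without young-SP replicate 1. In 2 of the 11, Ptgs2 and Cd80, both aged-SP libraries lay above all young-SP libraries, against 19.5% of all tested genes. Nos2, the inducible nitric oxide synthase, was 3.87 CPM in aged-SP replicate 1, 0.256 CPM in aged-SP replicate 4 and 1.20 to 1.63 CPM in the young-SP libraries. Acod1, the most abundant of the 11, was 140.9 and 1.73 CPM in the aged-SP libraries against 111.1, 61.2 and 165.2 CPM. The part of this library's state in the mean of Cd14 was not tested, and within the aged-SP group it cannot be told apart from the variation between females.

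Among the 7 genes of lipopolysaccharide recognition beside Cd14, 1 was higher and 1 lower with an unadjusted p below 0.05, against 19.0% of all tested genes in either direction. Tlr4, the signaling receptor to which CD14 passes its ligand, was 89.9 and 65.2 CPM in the aged-SP libraries against 48.9, 30.6 and 40.1 CPM in young-SP replicates 1, 2 and 4. Here the groups did not overlap, and the log2 fold change of 0.96 ± 0.23 (SE) had an adjusted p of 0.131 by edgeR's quasi-likelihood test and 0.00896 by DESeq2's Wald test. Myd88, the adaptor that carries the signal onward, went the other way, at 44.3 and 33.1 CPM against 57.3, 55.6 and 100.7 CPM, a log2 fold change of -0.88 ± 0.31. Lbp, which loads lipopolysaccharide onto CD14, was 372.8 and 180.8 CPM against 221.5, 137.4 and 143.4 CPM, with the highest value again in aged-SP replicate 1. Of 4 tested genes of macrophage growth factors and their receptors (Csf1, Il34, Csf2ra and Csf2rb), Csf1 alone had an unadjusted p below 0.05, with a log2 fold change of 2.33 ± 0.65 and an adjusted p of 0.160 by edgeR's quasi-likelihood test.

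**Figure D5:**
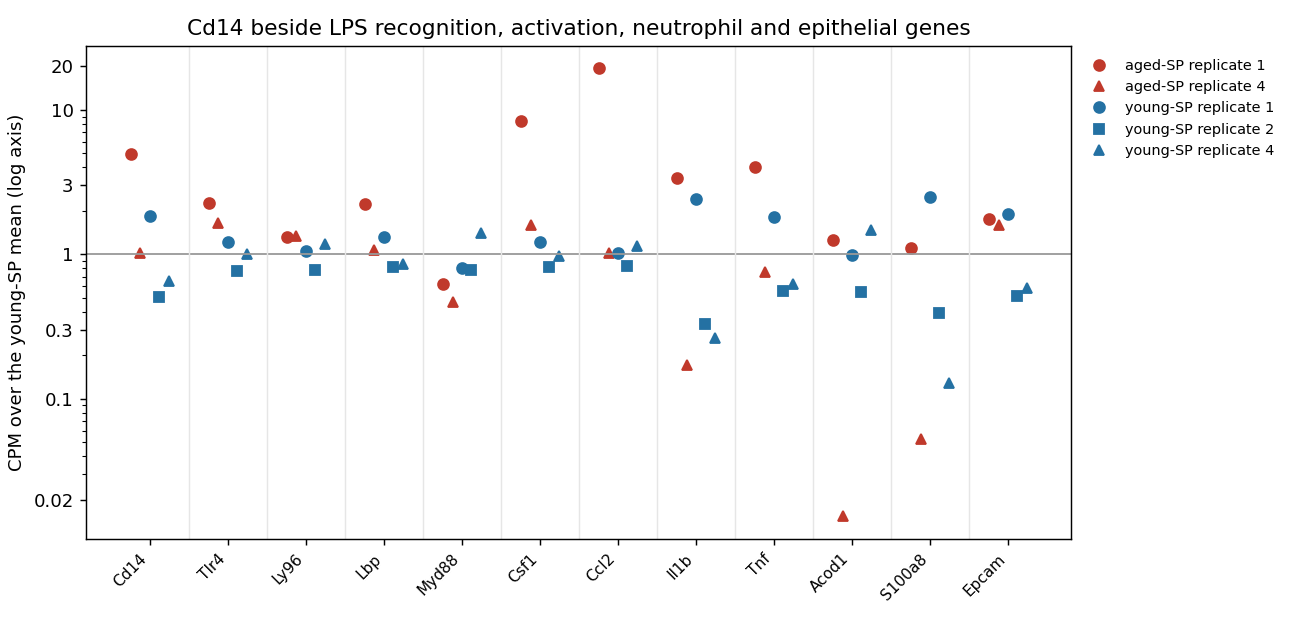
Cd14 with 11 genes of lipopolysaccharide recognition, macrophage activation, neutrophils (S100a8) and epithelium (Epcam) in each library, divided by the mean of the 3 young-SP libraries (log axis; the line marks that mean). Aged-SP replicate 1 (red circle) is the highest library for Cd14, Tlr4, Lbp, Csf1, Ccl2, Il1b and Tnf. Aged-SP replicate 4 (red triangle) is below all young-SP libraries for Myd88, Il1b, Acod1 and S100a8.

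Of 20 genes of resident tissue macrophages outside the members 19 were tested, with Vsig4 too low, and their median log2 fold change was 0.10, or 0.39 without young-SP replicate 1 and 0.46 without aged-SP replicate 1. Timd4, a marker of long-lived resident cells, was at most 2.50 CPM, and Selenop, the most abundant of the 19, was 664.5 and 1064 CPM against 640.4, 621.1 and 751.1 CPM. The summed list was 1597 and 2478 CPM in the aged-SP libraries and 2230, 1402 and 1762 CPM in the young-SP libraries, with overlapping groups.

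Relative to Adgre1, the members thus fell into different patterns. Mrc1 per Adgre1 was 1.23 and 1.38 in the aged-SP libraries against 1.39, 2.02 and 1.63 in young-SP replicates 1, 2 and 4. The aged-SP libraries were lower here, by a margin to young-SP replicate 1 that is far smaller than the spread within either group. Per summed pan-macrophage genes, Mrc1 was 0.0606 and 0.0574 against 0.0807, 0.102 and 0.0999, a ratio of the group means of 0.627, and the nearest libraries of the groups differed by more than the SD of either group. Cd163 and Adgre1 were also lower on that scale without overlap between the groups, at ratios of 0.590 and 0.804. For both, unlike Mrc1, the nearest libraries of the groups differed by less than the SD of either group. Adgre1 was 0.0495 in aged-SP replicate 1 and 0.0505 in young-SP replicate 2. The share of all genes that lie below on that scale was not determined, and on the CPM scale it was 19.3%. Lyz2 alone held much of the pan-macrophage sum, at 722.7 of 1273 CPM in aged-SP replicate 1. Retnla per Adgre1 was higher, as given above, and for Cd68, Cd163, Lyve1, Folr2, Cd14, Marco and Mertk the groups overlapped on this scale.

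Markers of other cells that a uterus holds were measured in the same libraries, and the counts of these genes with an unadjusted p below 0.05 stand against 19.0% of all tested genes. Summed genes of all leukocytes were 269.4 and 255.5 CPM in the aged-SP libraries against 364.0, 254.8 and 259.0 CPM in young-SP replicates 1, 2 and 4, and 0 of the 6 had an unadjusted p below 0.05, the first of them, Ptprc, being at 97.2 and 74.5 against 124.5, 80.9 and 89.9 CPM. The sum of 6 neutrophil genes, which matter for Cd14, was highest in young-SP replicate 1, at 243.1 CPM. It was 94.8 and 23.0 CPM in the aged-SP libraries and 39.8 and 23.1 CPM in young-SP replicates 2 and 4. In young-SP replicate 1, S100a8 was 26.9 CPM and S100a9 101.8 CPM, and 4 of the 6 genes had their highest value there. Ly6g was highest in aged-SP replicate 4 (1.215 CPM) and Mpo in aged-SP replicate 1 (3.083 CPM). An unadjusted p below 0.05 was reached by 0 of the 6 genes. Cd14 was highest in aged-SP replicate 1 (675.6 CPM) and next highest in young-SP replicate 1 (250.9 CPM). The neutrophil sum was highest in young-SP replicate 1 and next highest in aged-SP replicate 1. The part of neutrophils in the level of Cd14 was not tested.

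Of 5 monocyte genes, Ccr2 (log2 fold change -0.32) and Vcan were lower in the aged-SP group with an unadjusted p below 0.05, while Ly6c2 and Plac8, the most abundant of them, had overlapping groups. Vcan, which stromal cells also make, was 70.6 and 35.7 CPM against 245.5, 215.7 and 260.2 CPM, with a log2 fold change of -2.18 ± 0.31 (SE), an adjusted p of 0.0734 by edgeR's quasi-likelihood test and 1.83e-10 by DESeq2's Wald test. The same unadjusted level was reached by Ear2 of 4 eosinophil genes (log2 fold change 1.43; relatives hold 41.5% of its 50-base stretches), by Batf3 of 7 dendritic cell genes (0.71), by Kit of 4 mast cell genes (-0.76) and by Cd3g (-1.11) and Ncr1 (-0.94) of 6 genes of T, NK and B cells. It was not reached by the eosinophil genes Siglecf (-0.24) and Ccr3 (0.10), the dendritic cell genes Flt3 (-0.31) and Zbtb46 (-0.0079), the mast cell genes Cpa3 (1.37) and Cma1 (1.25) and the T cell gene Cd3e (-0.81).

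Of the tissue compartments, Krt18 (0.38) among 5 epithelial genes and Hand2 (-0.28) and Pdgfra (-0.65) among 5 stromal genes had an unadjusted p below 0.05. Epcam, an epithelial gene, divided the libraries as the principal component did, at 262.1 and 235.4 CPM in the aged-SP libraries, 280.8 CPM in young-SP replicate 1 and 76.6 and 87.1 CPM in young-SP replicates 2 and 4, and Krt8, the most abundant epithelial gene, ranged from 202.1 to 400.8 CPM. None of the 4 mesothelial, 4 muscle wall and 3 red blood cell genes tested had an unadjusted p below 0.05 in edgeR's quasi-likelihood test. Dcn, Myh11, Wt1, Msln and Hba-a1 had log2 fold changes of 0.07, 0.07, 0.05, 0.30 and 0.26.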

How the data were processed

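RNA of 5 whole uteri was analysed, grouped by the sample titles. RNA was extracted with TRIzol, libraries were made with a kit that does not mark strand, and the submitters' processing notes name HISAT2 2.1.0, Bowtie2 2.2.3 and HTSeq 0.6.0. The genome build is not given in the sources used here, but 26999 of the 28666 listed genes, and 7 of the 10 members, have the same position in GENCODE M21 (GRCm38), and Retnla, Adgre1 and Cd14 differ by a few bases. The authors deposited raw counts per gene and library, which were used for all tests. They also deposited FPKM, which equal the counts per gene length and total count to within a relative deviation of 2e-07 and served only to compare levels between genes. The deposited table further holds the mean signal after DESeq2 scaling, and the authors' own comparison of the groups as a fold ratio, a log2 fold change, a p-value and an adjusted p-value, none of which was used. 

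The counts were filtered with filterByExpr, scaled by TMM (factors 0.990 to 1.02) and compared with edgeR 4.0.16 (glmQLFit and glmQLFTest) in R 4.3.3, with Benjamini-Hochberg adjustment over all 17013 tested genes. A gene was called if its adjusted p was below 0.05 and its log2 fold change beyond 1 in either direction. CPM are counts scaled to library size after TMM. Alternatives were DESeq2 1.42.0 (size factors, Wald test), library size alone, limma-voom (limma 3.58.1), edgeR with legacy = FALSE, no filter, at least 10 reads in every library, a replicate block, the omission of 1 library at a time and the adjusted p alone. The fits were tested on simulated data. The 10 library pairs differed by more than sampling noise (chi-square per degree of freedom 17.0 to 82.3), so each library counted as 1 replicate. The reads carry no molecular identifiers.

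The members and the 23 gene lists read beside them were chosen with earlier results of these data known, so no list was tested. All members were named, and of each list the genes with an unadjusted p below 0.05, the first gene and the most abundant one, beside a few others of the lists whose values a comparison needed, chosen after their values were seen. The result of 1 gene of the lists is not reported here. Shared sequence is the share of 50-base stretches of a gene's GENCODE M21 transcripts that occur in other genes on either strand. For a symbol on several rows, the row with the most reads was used. Tables and plots were made with Python 3.11.15, numpy 2.4.6, pandas 2.3.3 and matplotlib 3.10.9.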

Additional observations from a re-analysis of the deposited data

How the results depend on the processing

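With 2 and 3 libraries, the number of genes called, 25 with edgeR's quasi-likelihood test, depended on the fit. It was 632 with DESeq2's Wald test, 203 without the filter on low counts and 2 with a replicate block, and between 1 and 578 with a library left out (578 when that was young-SP replicate 1, 49 for aged-SP replicate 4, 3 for young-SP replicate 2, 2 for young-SP replicate 4 and 1 for aged-SP replicate 1). DESeq2, whose omissions were added after seeing the data, called 324 to 1002 genes with a library left out (324 for aged-SP replicate 1, 393 for young-SP replicate 2 and 1002 for young-SP replicate 1) and 1330 at the adjusted p alone. The cause was not tested. Of the members, 0 were called by edgeR with any library left out, 1 (Retnla) was called by DESeq2 and 1 (Retnla) without the filter. With each young-SP library left out, DESeq2 called 1 member (Retnla), where it called 393 to 1002 of all genes. With all 5 libraries it gave 2 members, Lyve1 and Retnla, an adjusted p below 0.05. Without aged-SP replicate 1, the DESeq2 log2 fold changes were 2.12 for Retnla and 0.87 for Lyve1, the latter under the threshold of 1.

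The log2 fold change of Lyve1 was 0.85 with DESeq2 and 0.85 without the filter (adjusted p = 0.0333 by edgeR's quasi-likelihood test), and 0.75 to 0.90 with a library left out. That of Retnla was 2.05 with DESeq2 and 2.05 without the filter (adjusted p = 0.0426 by edgeR's quasi-likelihood test). Under 5 other scalings, filters and tools (DESeq2 size factors, library size, limma-voom, legacy = FALSE, at least 10 reads) both kept their direction with adjusted p values over 0.05. Values near 0 changed sign, with Adgre1 at 0.021 in limma-voom and at -0.29 to 0.26 with a library left out, Cd163 at -0.94 to 0.14, Folr2 at -0.32 to 0.94 and Marco at -0.76 to 0.56. Cd14 was 0.03 without aged-SP replicate 1 and 2.35 without young-SP replicate 1, Cd68 was 0.07 without aged-SP replicate 4, and the log2 ratio of the summed members was 0.29 without Cd14. Cd163, Folr2 and Marco had at most 89, 86 and 15 reads in a library, which limits their precision. Where 1 aged-SP library was left, it was assumed to vary like the young-SP libraries.

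The labels share replicate numbers 1 and 4 between the groups, but give no reason for a pairing, and with only 2 pairs the deviations of same-numbered libraries correlated at 0.152 and 0.136. With the replicate block, the log2 fold change was 0.90 for Lyve1 (adjusted p = 0.166 by edgeR's quasi-likelihood test) and 2.55 for Retnla (adjusted p = 0.130), and 0 members were called.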
